A study of Mus musculus with 8 samples.

Results

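The resting microRNA (miRNA) make-up of mouse embryonic fibroblasts was compared between untreated ATM+/+ and ATM-/- cells, with 1 single-colour array per genotype. The members were the 178 array probes (175 distinct miRNA names) that the authors listed in the 4 h comparison sheet of both genotypes, out of 318 probes listed in either. They made up 57.2% of the 311 probes of the ATM+/+ sheet and 96.2% of the 185 probes of the ATM-/- sheet. Both groups were cultures of embryonic fibroblasts from littermates, grown in serum-containing medium and harvested at 0 h of a series with neocarzinostatin (NCS), a radiomimetic drug that breaks DNA. The other 6 arrays of the series hold NCS-treated cells of each genotype at 4, 8 and 24 h. ATM-/- cells lack ATM, a kinase that is activated when both strands of the DNA break. The labels do not say how many embryos or cultures gave the RNA or how the allele was made, and a miRNA array holds no probe for the Atm messenger RNA, so the genotype could not be checked against the data. With 1 array a side no 0 h difference could be tested.

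A mature miRNA is a strand of about the length of the sequences printed here, cut from a hairpin precursor, that guides Argonaute proteins to messenger RNAs mainly through its seed, the bases 2 to 8 from its 5′ end. One arm of the hairpin (the guide) is usually kept and the other (the passenger strand, marked by an asterisk in the older names used on the array) is mostly degraded. Fibroblasts are known for high levels of miR-21, the clusters of miR-199 with miR-214 and of miR-143 with miR-145 and the let-7 family, which accumulates as cells differentiate and represses growth regulators such as Ras and Hmga2. After DNA damage ATM phosphorylates KSRP, an RNA-binding protein that helps to process a subset of miRNA precursors, let-7 among them.

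The sequences below belong to the miRNAs that carry the comparison. RefSeq entries (build GRCm38.p6) were matched by name to 130 of the 178 shared probes. The seed is in capitals. The let-7 guide strands are shown first. Of the 6 shared let-7 probes, 5 stood at least 2-fold higher in ATM+/+ cells, against 16.9% of all probes. let-7i and let-7f were listed for ATM+/+ cells only, as were 42.8% of all probes of that sheet.
let-7a: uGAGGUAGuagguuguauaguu
let-7b: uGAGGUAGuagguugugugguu
let-7c: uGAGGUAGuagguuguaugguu
let-7d: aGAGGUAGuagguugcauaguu
let-7e: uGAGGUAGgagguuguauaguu
let-7f: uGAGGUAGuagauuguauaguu
let-7i: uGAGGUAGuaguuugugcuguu
These 7 strands carry the same seed, GAGGUAG, and differ from each other only outside it. Probes for strands this alike can share signal, so the levels of single let-7 members are uncertain.

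The next set holds mesenchymal and growth-linked miRNAs described below. The passenger strand of miR-21 is shown because its centred difference had the opposite sign to that of its guide. The Mir21a hairpin lies on chromosome 11, with the guide at chr11:86584120-86584141 and the passenger strand at chr11:86584082-86584103, both on the minus strand.
miR-21: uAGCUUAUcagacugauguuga
miR-21*: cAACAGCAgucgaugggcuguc
miR-199a-3p: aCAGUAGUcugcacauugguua
miR-199a-5p: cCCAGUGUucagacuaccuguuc
miR-125a-5p: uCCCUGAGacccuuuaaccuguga
miR-125b-5p: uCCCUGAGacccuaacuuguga
The last set holds 2 strands rich in alternating u and g that were bright in ATM+/+ cells, and strands from the low end of the comparison, where miR-500 and miR-501-3p share a seed.
miR-1187: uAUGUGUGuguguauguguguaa
miR-574-5p: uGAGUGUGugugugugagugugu
miR-1899: aGCGAUGGccgaaucugcuucc
miR-484: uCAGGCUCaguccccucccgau
let-7b*: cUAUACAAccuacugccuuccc
miR-501-3p: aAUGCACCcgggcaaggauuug
miR-500: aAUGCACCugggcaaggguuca

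Both untreated arrays were led by the same 6 probes, for miR-709, miR-720, miR-1195, miR-690, miR-762 and miR-1224. They held 78.2% of the summed intensity of the ATM+/+ sheet and 88.3% of that of the ATM-/- sheet. Probes differ in how strongly they bind, so the order of brightness is not an order of molecule numbers. miR-720 was later withdrawn from the miRNA registry as a likely transfer RNA fragment, and miR-1224 comes from a short intron spliced into a hairpin (a mirtron). After these 6 the intensity dropped from 9735 to 3787 in ATM+/+ cells and from 6836 to 1027 in ATM-/- cells. Of the 15 brightest probes of each sheet, 11 were the same. Only 16 probes of ATM+/+ cells and 7 of ATM-/- cells exceeded an intensity of 1000.

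The miR-709 probe read 69338 in ATM+/+ and 81310 in ATM-/- cells. Each array's intensities were whole multiples of a step of its own, within 0.05 steps, and miR-709 stood at 392742 and 392804 steps, with a within-array coefficient of variation (CV) of 0.0107% and 0.000882%. It was read as being at the ceiling of both arrays, so no fold was taken from it and it was left out of the counts of differences, which cover the other 177 probes. Below it, miR-720 read 41464 and 20566, with a CV of 46.8% on the ATM+/+ array, and miR-1195 read 36115 and 20945. miR-690 read 36083 and 6836, with CVs of 6.67% and 13.4%. On the centred log2 scale described below it was higher in ATM+/+ cells by 1.26.

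Among familiar fibroblast miRNAs, miR-145, miR-125b-5p, miR-22 and miR-214 entered the 15 brightest of at least 1 sheet. miR-145, a smooth muscle and fibroblast miRNA, read 1070 in ATM+/+ and 1027 in ATM-/- cells and was 14th and 7th in its sheet. miR-125b-5p read 1524 and 346 and was 12th and 21st. miR-22 read 970 and 489 and was 18th and 15th, and miR-214 read 756 and 531 and was 22nd and 13th. The ATM+/+ list of 15 alone held miR-1187, miR-574-5p, miR-125b-5p and miR-669c, and the ATM-/- list alone held miR-30c-1*, miR-214, miR-24 and miR-22.

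**Figure D1:**
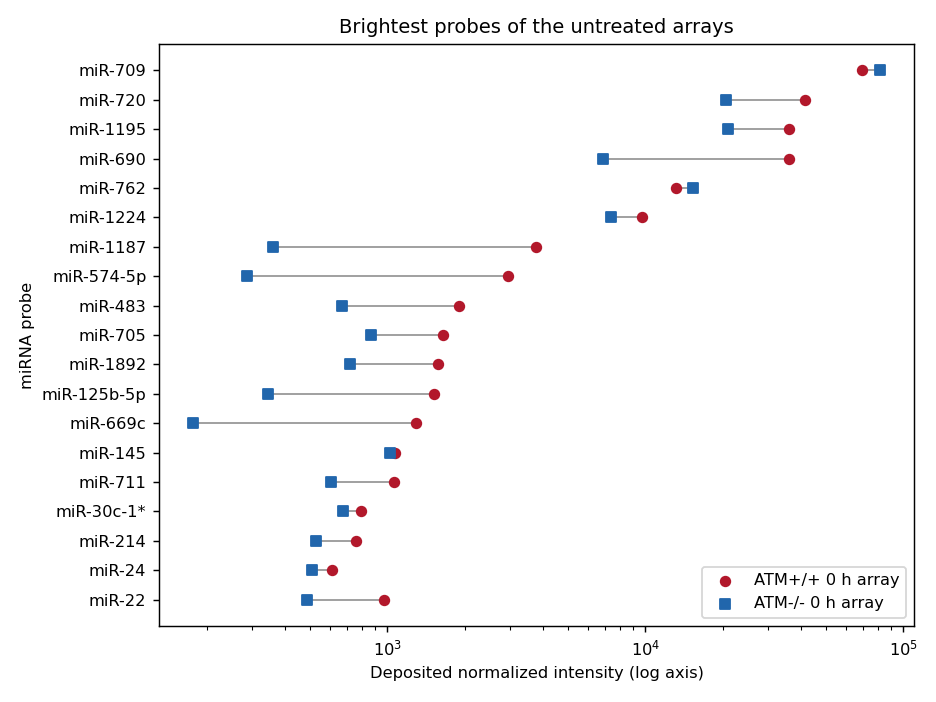
Deposited normalized 0 h intensity (log axis) of the probes among the 15 brightest of either 4 h sheet, with 1 array per genotype (circle ATM+/+, square ATM-/-) and a line joining both values of a probe. The 6 leading probes are the same on both arrays, and miR-1187, miR-574-5p, miR-125b-5p and miR-669c show wide gaps below them.

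Over the shared probes the ATM+/+ array was brighter as deposited. Its median intensity was 131 against 59.4 in ATM-/- cells, which is a log2 shift of 1.14. Of the 178 probes, 155 read higher in ATM+/+ cells. The authors normalized the sheets of the genotypes separately, and the part of this in the shift was not tested. Counted in steps of each array, the log2 shift was 1.37. Genotype and slide cannot be told apart in it. Differences below are therefore ATM+/+ minus ATM-/- on the log2 scale after each array was centred on its median over the 178 shared probes. On that scale the median of all counted probes was -0.22. The interquartile range of log2 intensity was 2.27 in ATM+/+ and 1.77 in ATM-/- cells.

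Of 177 probes, 30 (16.9%) stood at least 2-fold higher in ATM+/+ cells, 32 (18.1%) at least 2-fold lower, and 115 lay within 2-fold. The numbers higher and lower depended on the scaling: they were 80 and 0 on the deposited scale, which put the median of all probes at 0.92, and 18 and 59 with arrays set to their 75th percentile, which put it at -0.68. The 30 higher members differed by 2.15 to 5.04 on the deposited scale. That scale adds the shift of 1.14 to every difference, so they could not change direction there. The 32 lower members lay between -0.91 and 0.12 on the deposited scale, and 22 of them were brighter in ATM-/- cells there. Within-array CVs gave a median SD of 0.25 for a log2 difference. This SD covers the spread within an array and not between cultures. Just past the 2-fold line lay miR-222 at 1.01 and miR-675-5p at -1.02, and just inside it miR-125b-5p at 0.999 and miR-370 at -0.999.

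**Figure D2:**
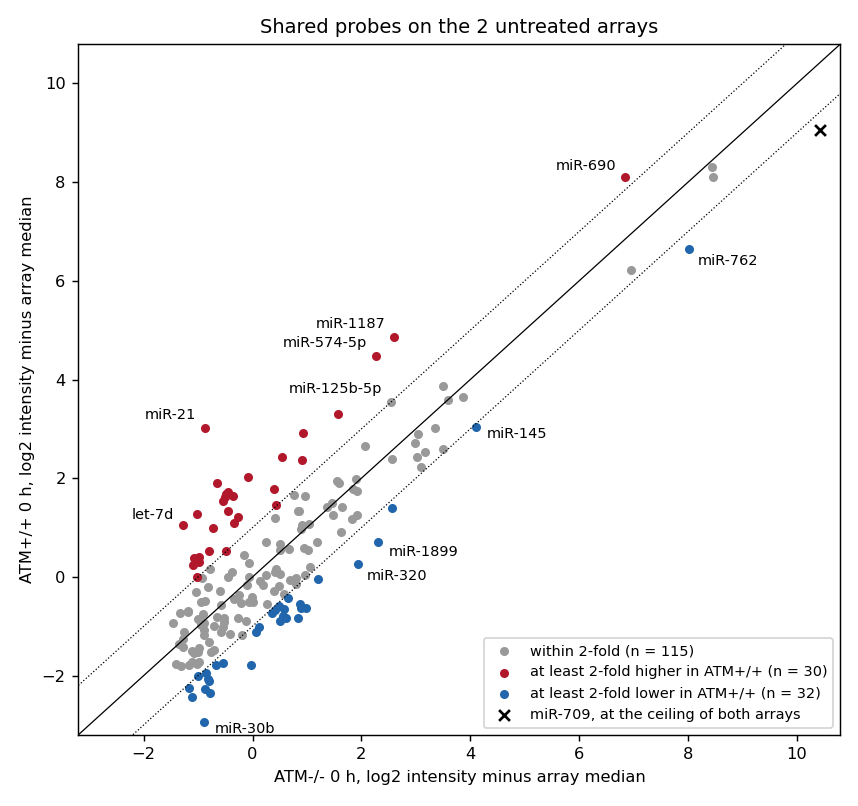
Centred log2 0 h intensity of each of the 178 shared probes, ATM-/- on the horizontal and ATM+/+ on the vertical axis. The solid line marks equality, dotted lines mark 2-fold, 30 probes lie above and 32 below them (18 and 59 with arrays set to the 75th percentile), and the cross is miR-709 at the ceiling of both arrays.

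Taken probe by probe, where probes of 1 array are no replicates, log2 intensities of both arrays gave Pearson's r of 0.860 and a Spearman rho of 0.714. The median change of rank among the 178 shared probes was 23 places, and 34 probes moved by more than 50. Ranks do not depend on the scaling of an array. The 5 probes that ranked furthest ahead in ATM+/+ cells were miR-21, let-7d, miR-199a-3p (with miR-199b on the same probe), the second let-7a probe and miR-99b. The 5 that ranked furthest ahead in ATM-/- cells were let-7b*, miR-485, miR-714, miR-484 and the second miR-483* probe, which moved 68 to 76 places.

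miR-21, a miRNA of growing fibroblasts that represses Pdcd4, showed the widest gap. Its probe read 1059 in ATM+/+ and 32.3 in ATM-/- cells, with CVs of 4.66% and 15.4%. It ranked 16 of the shared probes in ATM+/+ and 139 in ATM-/- cells, and the centred difference was 3.89, or 14.9-fold. The passenger strand from the same hairpin, miR-21*, read 78.7 and 76.4, a centred difference of -1.10. The guide was thus far brighter in ATM+/+ cells, whereas the passenger strand read nearly the same on both arrays as deposited.

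The let-7 family followed. All 6 shared let-7 probes had a centred difference above 0, and 5 were at least 2-fold higher, against 16.9% of all probes. Their median was 1.95 against -0.22 for all probes. The family median stayed above 0 under every scaling tried, at 1.49 to 3.32, and was 1.04 over the 3 let-7 probes shared by the 24 h sheets. The first let-7a probe read 534 with ATM and 55.9 without it, and the second 491 and 37.7, differences of 2.12 and 2.56. let-7d read 273 and 24.4, the latter below the 10th percentile of the ATM-/- sheet, a difference of 2.34. let-7c read 330 and 43.5, a difference of 1.79, and let-7e read 358 and 79.9, a difference of 1.02. let-7b was the exception, with 192 and 84.5 and a difference of 0.04. Its passenger strand let-7b* went the other way, with 73.8 in ATM+/+ and 106 in ATM-/- cells and a difference of -1.67.

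Fibroblast and mesenchymal markers were present on both arrays, and their centred differences lay on both sides of 0. All 10 marker probes were listed in both sheets, with 5 at least 2-fold higher in ATM+/+ cells, 1 at least 2-fold lower (against 16.9% and 18.1% of all probes) and a median of 0.43, which was -0.03 with arrays set to their 75th percentile and 1.57 on the deposited scale. miR-199a-3p, from a gene antisense to Dnm3 in mesenchyme, read 317 and 29.4, a difference of 2.29. Its partner arm miR-199a-5p read 404 and 41.8, a difference of 2.13. miR-214, which is transcribed with miR-199a-2, instead read 756 and 531, a difference of -0.63. The pair of miR-143 and miR-145 also parted, although both come from 1 transcript: miR-143 read 673 and 111, a difference of 1.45. miR-145 was nearly equal as deposited and had a centred difference of -1.08. In the pair of miR-221 and miR-222, which represses the cell-cycle inhibitor p27, miR-222 read 187 and 42.2 and miR-221 read 312 and 226, differences of 1.01 and -0.67. Thus in each of these clusters at least 1 member stood at least 2-fold higher in ATM+/+ cells and another did not. The centred differences below 0 turned with the scaling: as deposited, miR-214, miR-145 and miR-221 differed by 0.51, 0.06 and 0.47.

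In the miR-23/27/24 clusters, which regulate growth and differentiation, both miR-23 probes passed 2-fold. miR-23b read 434 and 43.5, with a CV of 47.6% on the ATM-/- array, and differed by 2.18. miR-23a read 453 and 77.6 and differed by 1.40. miR-24, from the same clusters, read 613 and 509 and differed by -0.87, or 0.27 on the deposited scale. miR-27a and miR-27b were listed for ATM+/+ cells only, at 242 and 220.

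Among miRNAs with the miR-125 seed CCCUGAG, miR-125a-5p read 379 and 40.6, a difference of 2.08. miR-125b-5p differed by 0.999, and miR-351, which shares the seed, by -0.27. miR-99b, which lies beside miR-125a and let-7e on chromosome 17, read 171 and 28.2, a difference of 1.46. The p53-induced miR-34a read 260 and 36.0, a difference of 1.71. miR-34c and miR-34b-5p were listed in ATM+/+ cells only, at 22.2 and 18.01, below the 10th percentile of the sheet.

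Many miRNAs named miR-297, miR-466, miR-467 and miR-669 come from a cluster in an intron of Sfmbt2, but not all do: RefSeq places miR-467f on chromosome 11. Of the 18 shared probes with these names, 7 stood at least 2-fold higher in ATM+/+ cells and 0 at least 2-fold lower (against 16.9% and 18.1% of all probes), with a median of 0.64 that ranged from 0.18 to 2.01 over the scalings. miR-466i read 417 and 42.2, a difference of 2.16, and miR-669c read 1298 and 177, a difference of 1.73. Outside this list, miR-1187 read 3787 and 361, a difference of 2.25, and miR-574-5p read 2934 and 285, a difference of 2.22. Both of these strands are rich in alternating u and g, as printed above.

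The 32 lower members had a median intensity of 73.8 in ATM+/+ and 81.1 in ATM-/- cells, whereas the 30 higher members had medians of 392 and 42.8. miR-30b had the lowest difference, -2.05, but read only 16.9 and 31.9 with CVs of 33.1% and 67.1%, the former below the 10th percentile of its sheet. miR-1899, a rodent miRNA without a role named here, was better measured, with 214.3 and 293.9, CVs of at most 3.93% and a difference of -1.60. miR-320 and miR-484, whose precursors are made without Drosha cleavage, read 157 and 227 and 84.4 and 111, differences of -1.68 and -1.53. miR-714 read 84.4 and 117.6, a difference of -1.62. miR-500 and miR-501-3p, which share the seed AUGCACC and lie in introns of Clcn5, differed by -1.22 and -1.57. The lower end also held a bright probe, miR-762, which read 13111 and 15364 and differed by -1.37.

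An imprinted cluster and the passenger strands gave more lower than higher values on the centred scale, but not on the deposited scale. Of 22 shared probes of the imprinted Dlk1-Dio3 cluster on chromosome 12, 5 stood at least 2-fold lower, near the 18.1% of all probes. Another 1 stood at least 2-fold higher, against 16.9% of all probes. The median of -0.63 turned to 0.51 on the deposited scale and 0.74 in array steps. miR-485 read 38.1 and 58.0, a difference of -1.74, with a CV of 54.6% on the ATM-/- array. miR-134, a neuronal regulator, read 126 and 137, a difference of -1.26. miR-494 went the other way, with 984 and 113 and a difference of 1.99. Of 15 shared passenger strands, 6 stood at least 2-fold lower and 1 at least 2-fold higher (against 18.1% and 16.9% of all probes), with a median of -0.84 that turned to 0.30 on the deposited scale and 0.53 in array steps. miR-140*, from a cartilage miRNA, read 89.7 and 109, and both miR-483* probes, from an intron of Igf2, lay at -1.08 and -1.45.

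The growth-promoting miR-17-92 cluster with its paralogs gave 3 probes above and 3 below 0 among 6, with a median of 0.19 that turned negative under 3 of the scalings and probe sets, down to -0.27. miR-17 alone passed 2-fold, near the 16.9% of all probes, with 188 and 33.9 and a difference of 1.33. The 14 shared probes for miRNAs numbered miR-1186 and above had a median of -0.12, whose sign changed under 4 of the scalings and probe sets. In each direction 1 of them passed 2-fold, against 16.9% higher and 18.1% lower of all probes.

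**Figure D3:**
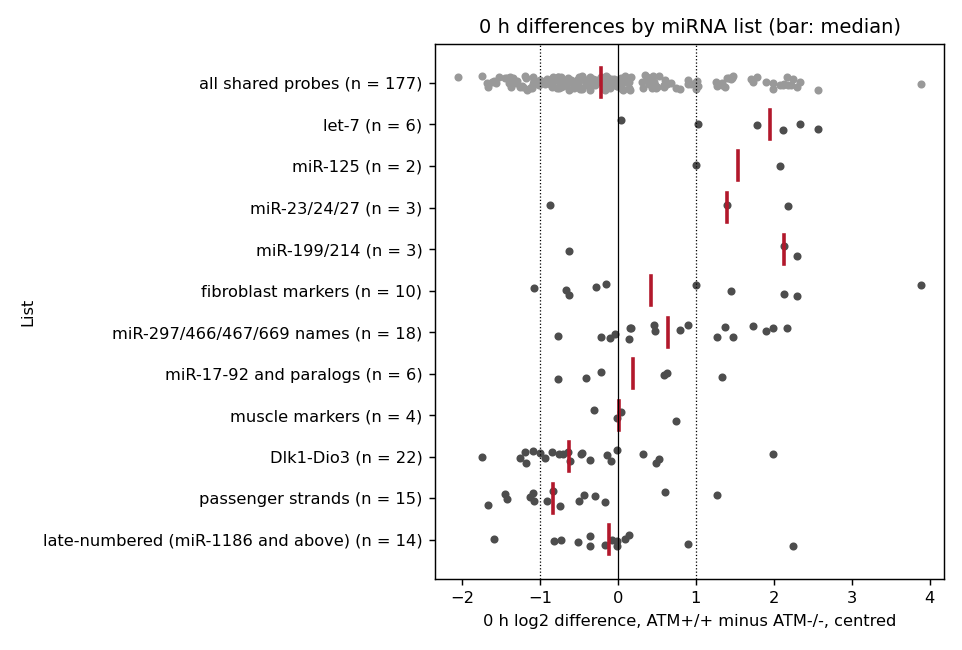
Centred 0 h log2 difference, ATM+/+ minus ATM-/-, of each shared probe (points) by list, with the median of each list as a bar and 2-fold as dotted lines. let-7 lies to the right at a median of 1.95 and passenger strands to the left at -0.84, the latter turning to 0.30 on the deposited scale, as the Dlk1-Dio3 list does to 0.51, while the fibroblast list turns to -0.03 at the 75th percentile.

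Markers of other cell types were few, but not all were dim: miR-1 and miR-141 stood above the sheet medians of 69.2 and 56.7. Muscle markers were listed in both sheets for 4 of 6, among them miR-1 at 276 and 122, with summed intensities of 523 and 223. Epithelial markers were listed for 3 of 7 in ATM+/+ cells (sum 446) and 1 of 7 in ATM-/- cells. The shared one, miR-141, stood at 368 and 164. Blood markers were listed for 3 and 1 of 7, at 26.5 to 32.8. Neural markers were listed for 1 of 5 in ATM+/+ and 0 in ATM-/- cells, and pluripotent markers for 4 and 2 of 18, at 58.8 or less. No liver or endothelial marker was listed in either sheet. The 10 fibroblast markers summed to 5806 and 2562, with medians of 539 and 76.8. In ATM-/- cells miR-1 and miR-141 lay above that median. The sums cover unlike numbers of probes. The deposited scale itself differs 2.21-fold between the arrays, and centred differences of miR-1 and miR-141 were 0.04 and 0.02. The part of these cell types in the differences was not tested.

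A larger set of probes was listed in 1 genotype only. The ATM+/+ sheet listed 133 probes that the ATM-/- sheet did not, and the ATM-/- sheet listed 7 that the ATM+/+ sheet did not. No source used here gives the rule by which the authors listed probes, so a probe outside a sheet has no value there and cannot be read as absent. The 133 were dim on the whole, with a median of 38.1 against 131 for the shared probes, and 28 lay below the 10th percentile of the sheet. Of them 126 were in none of the 3 ATM-/- sheets and 7 were in its 8 or 24 h sheet.

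Of them 11 read 100 or more. let-7i read 317, let-7f 257 and let-7g 132, beside miR-98 at 24.4. These were 4 of the 10 let-7 probes of the ATM+/+ sheet, near the 42.8% of all its probes. miR-27a read 242, miR-27b 220 and miR-26a, a differentiation-linked miRNA, 229. miR-20a and miR-106a, relatives of miR-17, read 158 and 129, and miR-16, which represses cyclins, read 128. miR-29b, a repressor of collagen genes, read 118.3, and miR-669f, which was listed in another ATM-/- sheet, 149. Of the 6 members of the miR-15/16 list, miR-16, miR-15b and miR-15a were listed for ATM+/+ cells and 0 for ATM-/- cells, where 42.8% of all probes of the ATM+/+ sheet were listed for ATM+/+ cells only. The 7 probes of ATM-/- cells were miR-193*, miR-384-3p, miR-1198, miR-376c*, miR-412, miR-678 and miR-1196, all between 18.2 and 31.0.

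**Figure D4:**
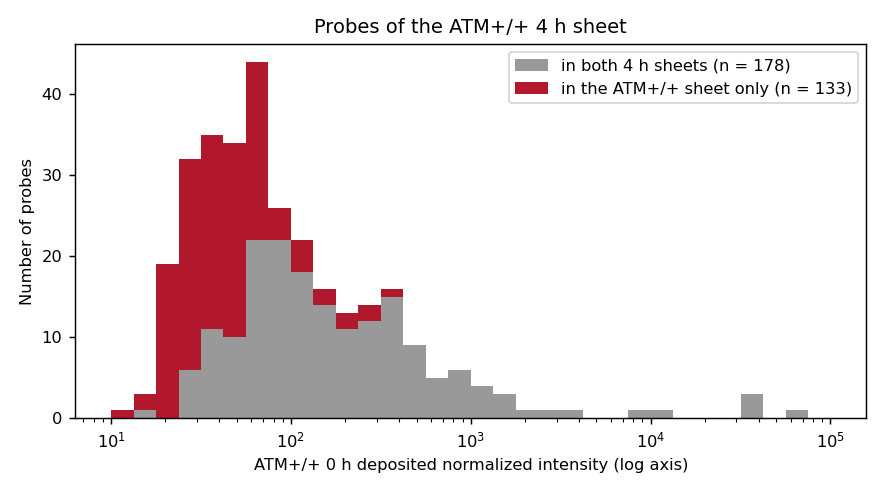
Number of probes of the ATM+/+ 4 h sheet by 0 h intensity (log axis), stacked by whether the ATM-/- 4 h sheet also lists them. The 133 probes listed for ATM+/+ cells only crowd at the dim end (median 38.1), and 11 of them reach 100 or more.

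Whether the 0 h differences were also seen on arrays that the comparison did not use was examined in the 6 NCS-treated arrays, over the 120 probes in all 6 sheets, each array centred on its median. limma with time as a block called 25 probes (20.8%) higher and 44 (36.7%) lower in ATM+/+ cells at an adjusted p under 0.05, and miR-709, near its ceiling on all but 1 array, was among the 44. The 3 times stand in for repeats, so these p-values rest on the spread over times. limma takes that spread partly from all 120 probes and not from each probe alone. The smallest limma adjusted p was 1.01e-09 here, 4.28e-43 with the 0 h arrays added and 0.0242 without the 24 h arrays. The size of these p-values is therefore unstable. Genotype and slide cannot be told apart here either. Centring takes out any single scaling factor of an array, and no other part of the separate normalization was tested. On the deposited scale the calls were 55 higher and 1 lower, and with arrays set to their 75th percentile 17 and 58. Of the 25 higher calls 17 were made under all 3 other scalings and 0 changed sign. Of the 44 lower calls 1, miR-1899, was made under all 3, and 27 changed sign under at least 1. The deposited scale shifts every difference towards ATM+/+ cells, so higher calls could not change sign there. Leaving out the 8 h arrays lowered the calls to 14 and 16, and leaving out the 4 h arrays lowered the lower calls to 24.

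Of the 30 members higher at 0 h, 18 were in all 6 sheets, and 15 of these were called higher and 0 lower. Of the 32 lower members, 22 were in all 6 sheets, and 16 were called lower and 0 higher. Of 79 probes within 2-fold at 0 h, 10 were called higher and 27 lower. The members outside the 6 sheets, among them let-7d, let-7c and miR-34a, were not tested.

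miR-21 again had the highest difference. At 4, 8 and 24 h it read 2461, 2076 and 3053 with ATM, and 45.4, 21.1 and 20.3 without it. As deposited, all 3 ATM+/+ arrays lay far above all 3 ATM-/- arrays. On that scale ATM+/+ arrays were brighter by a log2 shift of 0.97, 1.08 and 1.58 at 4, 8 and 24 h. How many probes separate this way as deposited was not counted. Centred, miR-21 differed by 4.79, 5.55 and 5.66 at these times. The difference over treated times was 5.33 (SE 0.29, limma adjusted p = 1.01e-09). The limma difference was 4.23 for miR-199a-3p (SE 0.28, adjusted p = 7.47e-09), 3.56 for miR-23b (SE 0.28, adjusted p = 8.53e-08) and 3.47 for the first let-7a probe (SE 0.30, adjusted p = 2.26e-07).

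let-7b, the let-7 member without a difference at 0 h, read 359, 368 and 560 in treated ATM+/+ cells and 73.3, 56.6 and 23.9 in treated ATM-/- cells. As deposited, its treated ATM+/+ arrays lay above all treated ATM-/- arrays. ATM+/+ arrays were brighter as a whole on that scale, and how many probes separate this way was not counted. The limma difference was 1.98 (SE 0.33, adjusted p = 0.000208). let-7b too was left out of the fit without dim probes. Of the 3 let-7 probes in all 6 sheets, 3 were called higher, against 20.8% of all probes. Among the members of these clusters, miR-143 at 1.87, miR-222 at 1.56 and miR-23a at 2.36 were called higher, whereas miR-145 (-0.59, limma adjusted p = 0.0781), miR-221 (0.23), miR-214 (0.17) and miR-24 (-0.26) passed in neither direction. The difference between members of a cluster was not tested.

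The lowest treated difference belonged to miR-1899. It read 179, 164 and 183 in treated ATM+/+ cells and 358, 612 and 370 in treated ATM-/- cells. The difference was -2.51 (SE 0.29, limma adjusted p = 6.46e-06). miR-714 followed at -1.93 and let-7b* was called lower at -1.62. Both were left out of the fit without dim probes. miR-21* was called lower at -1.33, opposite to its guide strand. Of 11 passenger strands in all 6 sheets, 9 were called lower and 0 higher by limma on the centred scale, against 36.7% of all probes. On the deposited scale miR-1899 was the only probe called lower.

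On the treated arrays miR-1187 and miR-574-5p varied with time. In ATM+/+ cells miR-1187 read 3787 at 0 h, then 747, 1690 and 1626. In ATM-/- cells it read 361, then 530, 441 and 173. Its genotype difference, centred over the 120 probes, was 2.24 at 0 h and -0.47, 0.86 and 1.65 after treatment, and limma did not call it (0.68, adjusted p = 0.109). miR-574-5p gave 2.21 at 0 h and -0.37, 1.14 and 1.98 after treatment, with a limma difference of 0.91 (adjusted p = 0.0445). For the 12 probes named miR-297, miR-466, miR-467 or miR-669 in all 6 sheets the median difference was 0.83 at 0 h, -1.06 at 4 h, -0.36 at 8 h and 0.84 at 24 h. Their median intensity was 301 on the 0 h ATM+/+ array and 112, 169 and 193 on the treated ones. The ATM-/- arrays gave 67.7 at 0 h, then 97.2, 93.5 and 30.4. Of the 12, 3 were called higher, near the 20.8% of all probes, and 1 lower.

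**Figure D5:**
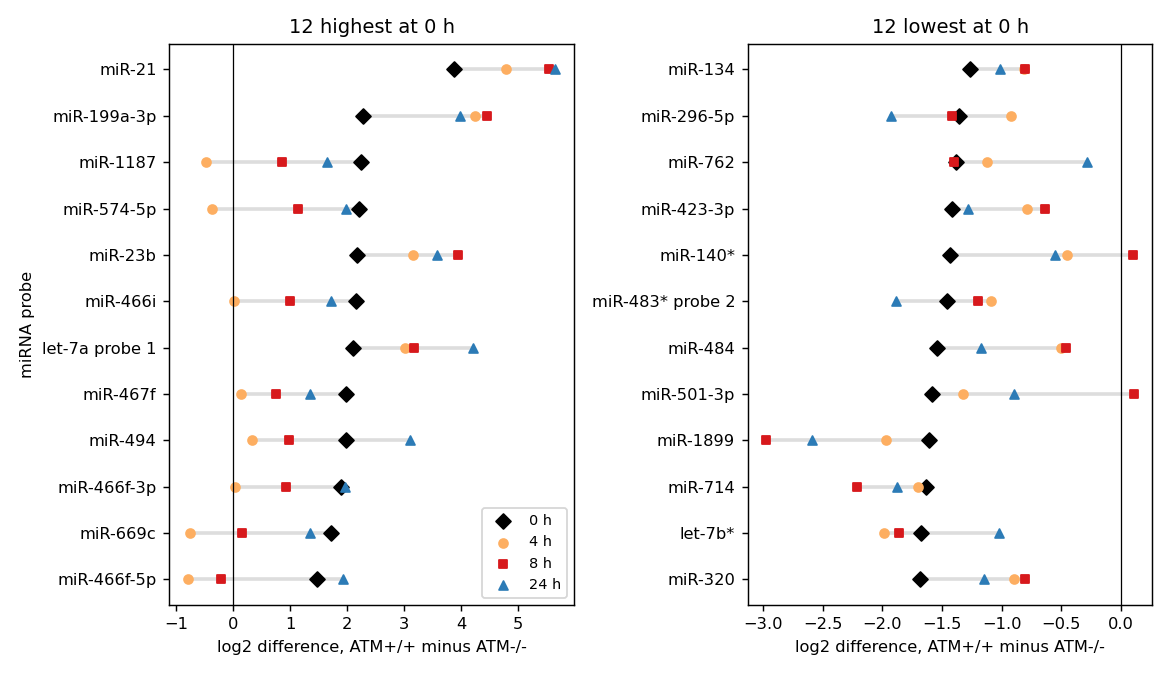
Centred log2 difference, ATM+/+ minus ATM-/-, at 0, 4, 8 and 24 h (1 array per genotype and time) for the 12 highest and 12 lowest 0 h probes in all 6 sheets, leaving out miR-709. miR-21, miR-199a-3p, miR-23b and let-7a stay right of 0 at every time, whereas miR-1187, miR-574-5p, miR-669c and miR-466f-5p lie left of 0 at 4 h.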

How the data were processed

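miRNA levels were measured on 8 arrays. The authors deposited, per the file headers, a normalized intensity per probe and array and a coefficient of variation (CV), whose basis the headers do not state. No source used here gives the scanner processing or the normalization method. Array precision is limited by 1 array per genotype and time. Probes were joined by identifier, log2 of intensity was centred on each array's median over shared probes, and a centred difference of 1 counted as 2-fold. The genotype difference over treated times used limma 3.58.1 in R 4.3.3 (lmFit, eBayes, time as block, Benjamini-Hochberg over 120 probes) and was tested on simulated data. Named miRNAs were the 15 brightest per sheet, the 10 highest and 10 lowest differences, the 5 largest rank changes each way, the 10 brightest listed in 1 genotype only, and list members; others past or near a threshold were chosen after their values were seen. Members and lists were chosen with earlier results of these data known. Arm names were assigned from general knowledge. A check of base composition was void because sequences matched 73.0% of shared probes, under the 80% needed. The deposited slide lists were used only to match column headers to samples, and the deposited ratio table was not used.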

Additional observations from a re-analysis of the deposited data

How the results depend on the processing

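Counts at 0 h moved most with the scaling. Probes at least 2-fold higher and lower in ATM+/+ cells numbered 30 and 32, against 80 and 0 on the deposited scale, 18 and 59 at the 75th percentile, and 32 and 27 after quantile normalization. Without dim probes 17 were lower, and with the 0 h columns of the 8 h sheets 18 were lower. With 2 settings chosen after seeing the data, the counts were 35 and 19 when centred on the median of the probe differences, and 103 and 0 in steps of each array. The 20 highest and lowest named differences kept their sign under every setting in which the probe was listed. This was largely fixed beforehand, because they were picked as the extremes and most settings shift all probes by 1 amount. miR-140* came to -0.06 in steps of each array. Of 17 list medians, 11 changed sign under at least 1 setting. The probes listed for ATM-/- cells only were 2 in the 24 h sheets against 7. In limma, 25 probes were higher and 44 lower over the treated times, against 55 and 1 on the deposited scale, and 15 probes were higher without dim probes, of 89 tested. Leaving out 1 time gave 14 to 22 higher and 16 to 35 lower. The cause of these changes was not tested, except that fewer probes or arrays entered the last settings. The time block pairs the treated arrays of the genotypes by time, and without it limma called 22 higher and 40 lower. At 0 h each group holds 1 array. Dim probes and the ceiling of miR-709 limit what can be read.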

Other observations

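The centred 0 h difference moved with brightness. The 59 dimmest counted probes had a median difference of -0.47, with 1 at least 2-fold higher in ATM+/+ cells and 14 lower. The 59 brightest had a median of 0.02, with 14 higher and 5 lower. The part of this in the results for dim probes was not tested. Where 2 probes carried the same name their differences lay 0.45 apart for let-7a, 0.19 for miR-431 and 0.37 for miR-483*. miR-30d read 190 in ATM+/+ and 121 in ATM-/- cells, a difference of -0.49 that turns positive on the deposited scale, and miR-30e and miR-30c were listed for ATM+/+ cells only. miR-103 and miR-107, which share the seed GCAGCAU, differed by 0.35 and 1.02.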
